A study of Mus musculus with 6 samples.

Results

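The 10 genes described here encode 5 kainate receptor subunits (Grik1, Grik2, Grik3, Grik4 and Grik5) and 5 metabotropic glutamate receptors (Grm2, Grm3, Grm5, Grm7 and Grm8). They were chosen by name among 48709 gene IDs with counts, with earlier results of these data known, and all 10 were found once each. RNA came from dissected neocortex of E15.5 mouse embryos, sequenced from oligo dT primed cDNA. The mutant group, called Rest_het, carried 1 Rest allele without exon 4, Rest(+/deltaExon4), and comprised 3 libraries, whose titles say KO although the genotype is heterozygous. The comparison group was wild type (WT), also with 3 libraries. All animals are labelled C57BL/6, and the design set mutant against wild-type cortex. Rest encodes a zinc-finger repressor that keeps many neuronal genes silent outside neurons. Each group is described as 3 mice, with no litter or preparation batch given, so p-values measure the spread between these libraries.

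Glutamate acts on ion channels and on receptors coupled to G proteins. Kainate receptors are channels built from 4 subunits. Grik1, Grik2 and Grik3 can form channels alone, while Grik4 and Grik5 bind kainate tightly but need a subunit of the first kind to form a working channel. Metabotropic receptors fall into groups: group I (Grm5 here) acts through Gq and phospholipase C, while group II (Grm2, Grm3) and group III (Grm7, Grm8) act through Gi and Go and lower transmitter release. In the developing cortex these receptors are known before most synapses form, on progenitors, migrating neurons and growing axons.

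The libraries held 17835117 to 18426652 gene reads in Rest_het and 19996943 to 20753653 in WT. Rest itself had 16.7, 18.98 and 18.6 CPM (reads scaled to library size) in Rest_het libraries, against 21.0, 19.7 and 21.1 CPM in WT libraries. Every Rest_het value lay below every WT value, with an exact two-sided permutation p of 0.1, the smallest that 3 against 3 allows, and an edgeR adjusted p of 0.49. A gene total covers all exons and does not check the exon 4 deletion. Excitatory neuron markers were abundant in each library, with a summed level of 2284 to 2386 CPM in Rest_het and 2477 to 2729 CPM in WT. Every Rest_het sum lay below every WT sum. Of the 8 markers, 7 had a log2 fold change below 0 and 1 above it, and edgeR called 0. The part of this difference in the receptor values was not tested. The groups also differed outside the gene counts: Cre-ERT2 had 43 reads in Rest_het and 0 in WT, and LacZ had 0 reads in Rest_het and 121 in WT. Effects of the Rest allele and of whatever else separates the groups therefore cannot be told apart.

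Receptor genes differed widely in level. Per length of merged exons, as reads scaled to exon length and library size (RPKM, mean ± SD over all 6 libraries), Grm3 stood first with 3.48 ± 0.759, followed by Grik2 with 3.06 ± 0.285 and Grik3 with 2.41 ± 0.443. In the middle came Grik5 with 1.71 ± 0.151, Grm5 with 1.19 ± 0.233 and Grik1 with 0.796 ± 0.163. Grm2 (0.263 ± 0.0751), Grm7 (0.185 ± 0.163), Grik4 (0.179 ± 0.127) and Grm8 (0.0523 ± 0.0291) formed a low set. Neighbours in this order overlapped in their library values, except that Grik5 lay wholly above Grm5 and Grik1 wholly above Grm2. With the longest transcript as length, Grik2 (4.30 RPKM) stood above Grm3 (3.48 RPKM), so the order of the top pair depends on the length used. The median RPKM of tested genes was 2.85, and only Grm3 and Grik2 lay above it.

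**Figure D1:**
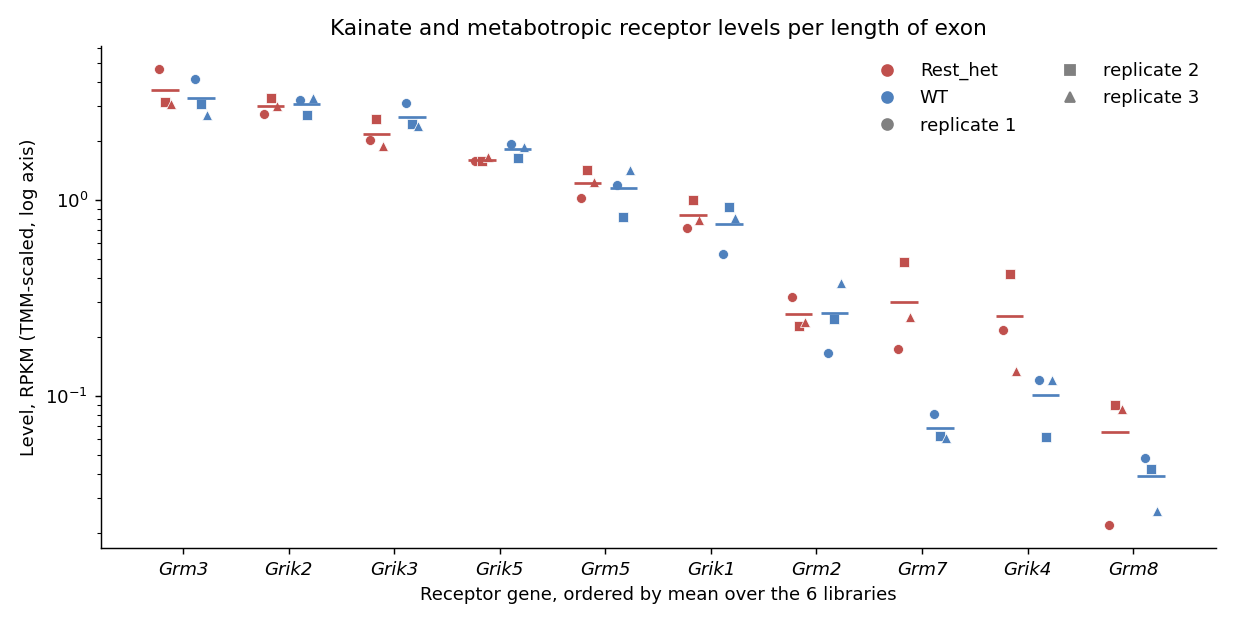
RPKM of the 10 receptor genes in each library (log axis), Rest_het in red left of WT in blue; symbols mark replicates and lines the group means. The high and middle genes overlap between genotypes, while Grm7 and Grik4 lie higher in all Rest_het libraries.

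Genotype was compared by edgeR's quasi-likelihood test over all genes. Of the 10 receptors 9 had enough reads to be tested, and Grm8 did not. No receptor was called at an adjusted p under 0.05, a threshold passed by 19 of 15385 tested genes (0.123%, with 0.065% higher and 0.0585% lower in Rest_het). Grm7 and Grik4 were the 2 receptors under 0.05 before adjustment, both higher in Rest_het. Of all tested genes 11.7% passed that threshold, 6.97% higher and 4.72% lower. Grm7 met the count filter in 3 Rest_het and 0 WT libraries. Its place in any count under that filter, which DESeq2 shared, therefore supports nothing. Grm7 and Grik4 were also the 2 of 9 whose groups did not overlap (22.2%), beside 19.3% of all tested genes, 10.4% higher and 8.94% lower, so that count was near the background. DESeq2 called 1 receptor, Grm7, beside 0.888% of its genes, 0.486% higher and 0.402% lower. Without a count filter edgeR also called Grm7 alone, beside 0.372% of genes, 0.212% higher and 0.16% lower. No receptor was called by limma-voom, which called 0.13% of genes, 0.065% in each direction, or with the replicate number in the edgeR model, which called 0.039%, all higher. In bulk tissue, fewer cells of a type and less RNA per cell cannot be told apart. Intervals given for folds are 95% intervals.

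**Figure D2:**
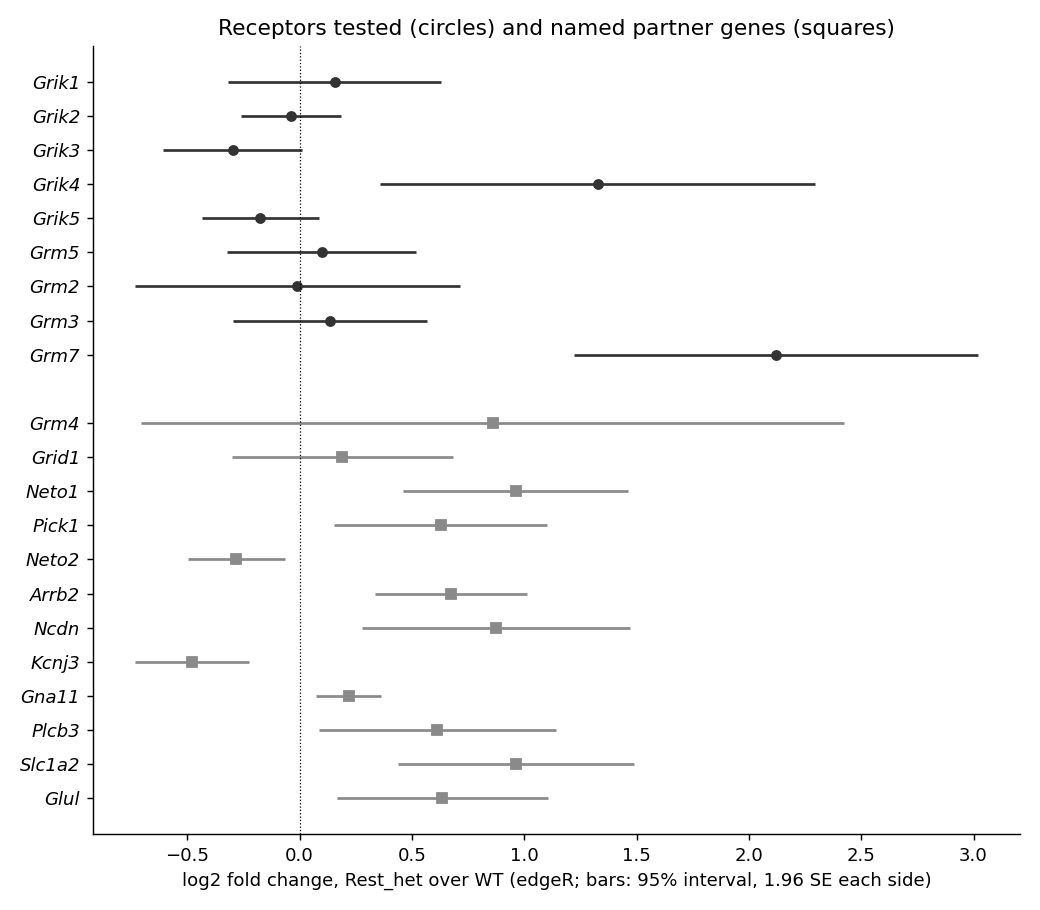
log2 fold change, Rest_het over WT, of the 9 tested receptors (circles) and the named partner genes (squares), with 95% intervals. Grm7 at 2.12 and Grik4 at 1.33 lie farthest from 0, and their intervals are wide.

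Among kainate subunits that form channels alone, Grik2 was the most abundant. Its transcript is known for editing of a codon in the channel pore, which gene counts do not resolve. Grik2 (ENSMUSG00000056073.14, chromosome 10 from 49094833 to 49788766 in GRCm38, minus strand) measured 36.2, 43.8 and 39.9 CPM in Rest_het libraries, against 43.1, 35.9 and 44.1 CPM in WT libraries. The groups overlapped. The fold was 0.975 with an interval of 0.835 to 1.14 (edgeR adjusted p = 0.92), the narrowest interval among the receptors. Grik3 (ENSMUSG00000001985.9, chromosome 4 from 125490700 to 125714173, plus strand) encodes a subunit of low sensitivity to glutamate. It had 18.2, 23.2 and 16.9 CPM in Rest_het libraries, against 28.1, 21.96 and 21.5 CPM in WT libraries. WT replicate 1 was the highest, and Rest_het replicate 2 lay inside the WT range. The Grik3 log2 fold change was -0.30 with SE 0.16 (edgeR adjusted p = 0.49). Leaving out single libraries moved it between -0.44 without Rest_het replicate 2 (edgeR adjusted p = 0.61) and -0.16 without WT replicate 1 (edgeR adjusted p = 0.74). Grik1 (ENSMUSG00000022935.15, chromosome 16 from 87895900 to 88290265, minus strand), a subunit prominent in interneurons of the mature cortex, had 4.86, 6.75 and 5.30 CPM in Rest_het, against 3.58, 6.16 and 5.45 CPM in WT. Its fold was 1.11 with an interval of 0.802 to 1.55 (edgeR adjusted p = 0.83).

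The high-affinity subunits had folds on opposite sides of 1, Grik5 below it and Grik4 above it, and neither passed the adjusted threshold. Grik5 (ENSMUSG00000003378.9, chromosome 7 from 25009849 to 25072346, minus strand), the common partner of Grik2 in brain receptors, had 8.15, 8.13 and 8.59 CPM in Rest_het libraries, against 9.97, 8.48 and 9.62 CPM in WT libraries. Only the highest Rest_het value overlapped the WT range. The fold was 0.886 with an interval of 0.740 to 1.06 (edgeR adjusted p = 0.62). Grik4 (ENSMUSG00000032017.14, chromosome 9 from 42518135 to 42944493, minus strand), best known from hippocampal CA3 neurons, was scarce. It had 24, 45 and 15 reads in Rest_het libraries, against 15, 7 and 14 reads in WT libraries. Scaled, these were 1.30, 2.49 and 0.796 CPM in Rest_het, against 0.716, 0.369 and 0.720 CPM in WT. All Rest_het values lay above all WT values, but Rest_het replicate 3 only just, and Rest_het replicate 2 was far above the other mutants. The Grik4 fold was 2.51 with an interval of 1.28 to 4.90 (edgeR adjusted p = 0.39), with an unadjusted edgeR p of 0.027. Without Rest_het replicate 2 the log2 fold change was 0.79, against 1.33 with all libraries, and the unadjusted edgeR p was 0.13.

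Group I was represented by Grm5, the receptor that raises intracellular calcium through Gq and that cortical progenitors also carry. Grm5 (ENSMUSG00000049583.15, chromosome 7 from 87584168 to 88134907, plus strand) had 10.5, 14.6 and 12.7 CPM in Rest_het libraries, against 12.2, 8.43 and 14.6 CPM in WT libraries. The WT values spanned the Rest_het values. Its fold was 1.07 with an interval of 0.800 to 1.43 (edgeR adjusted p = 0.88).

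In group II, Grm3, a receptor of neurons and glia, stood above Grm2, a receptor of presynaptic terminals, per length of exon (3.48 RPKM for Grm3 and 0.263 RPKM for Grm2). Grm3 (ENSMUSG00000003974.6, chromosome 5 from 9485541 to 9725170, minus strand) measured 14.2, 9.63 and 9.44 CPM in Rest_het, against 12.6, 9.43 and 8.23 CPM in WT. In each group replicate 1 was the highest. The fold was 1.10 with an interval of 0.814 to 1.48 (edgeR adjusted p = 0.84). Grm2 (ENSMUSG00000023192.12, chromosome 9 from 106643095 to 106656082, minus strand) had 29, 20 and 22 reads in Rest_het libraries, against 17, 23 and 36 reads in WT libraries. Its fold was 0.994, but with so few reads the interval ran from 0.602 to 1.64 (edgeR adjusted p = 0.99). An antisense gene, Gm28111, shares 470 bases of Grm2 exon on the other strand and had 0 reads in every library. Libraries without strand cannot tell such reads apart. Grm2 had 147 reads counted regardless of strand and 147 summed over the counts of each strand, so the overlap took none from its total.

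Grm2 was also the receptor whose promoter held both arms of the REST element. REST binds RE1, a bipartite site whose arms usually lie close together and in known variants lie farther apart. The left arm was searched as CAGCACC and the right arm as GGACAG, on both strands, in RefSeq windows of GRCm38.p6 from 250 bases before to 50 after each gene start. There were 11 windows for 8 receptors, and Grik1 and Grm5 had none. The joined element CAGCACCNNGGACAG occurred in 0 of the 11 and in 0.0365% of 32851 windows of all genes. The Grm2 window held the arms in order with 7 bases between them, as CAGCACCNNNNNNNGGACAG, which 3 of the 32851 windows held, or 0.00913%. That spacing was chosen after the match was seen. Both arms at any spacing of 1 to 10 bases occurred in 0.1005% of windows. Apart from Grm2, 1 of the 3 Grm8 windows held a right arm, which 22.2% of all windows do. The match is a run of letters, not a bound site. The Grm2 window, chr9:106656060-106656359 on the minus strand, is shown because it carries this match, with the arms in capitals.
Grm2: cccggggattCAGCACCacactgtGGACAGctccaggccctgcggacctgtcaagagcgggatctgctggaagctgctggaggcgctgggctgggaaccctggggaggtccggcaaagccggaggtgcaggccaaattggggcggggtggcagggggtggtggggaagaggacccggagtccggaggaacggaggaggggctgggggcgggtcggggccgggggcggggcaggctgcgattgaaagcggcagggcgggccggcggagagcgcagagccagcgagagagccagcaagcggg

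Group III held the largest difference. Grm7, a presynaptic receptor of very low affinity for glutamate, was 4.35-fold higher in Rest_het, with an interval of 2.33 to 8.12. Grm7 (ENSMUSG00000056755.13, chromosome 6 from 110645581 to 111567230, plus strand) had 19, 51 and 28 reads in Rest_het libraries, against 10, 7 and 7 reads in WT libraries. Scaled, these were 1.03, 2.82 and 1.49 CPM in Rest_het, against 0.477, 0.369 and 0.360 CPM in WT. The lowest Rest_het library, with 19 reads, lay above the highest WT library, with 10 reads. WT libraries lay close together at few reads, and Rest_het replicate 2 was the highest. The log2 fold change was 2.12 with SE 0.46, an edgeR p of 0.0017 and an adjusted p of 0.32. DESeq2 gave an adjusted p of 0.034 and edgeR without a count filter 0.042, both past the threshold, and limma-voom gave 0.32. The filter asked for 0.52 CPM in 3 libraries, which Grm7 met in 3 Rest_het and 0 WT libraries, so it entered the test through the mutants alone. Its p-values under that filter, from edgeR, DESeq2 or limma-voom, therefore support nothing. Without Rest_het replicate 2 its log2 fold change was 1.63, with an unadjusted edgeR p of 0.0053 (adjusted p = 0.56). An antisense gene, Gm20387, shares 130 bases with Grm7 exons and had 0, 3 and 2 reads in Rest_het against 1, 0 and 0 in WT, far fewer than Grm7.

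The Grm7 promoter is shown because this receptor differed most. Its 2 RefSeq windows, which overlap, held neither arm of the REST element, and both had the Sp1 box GGGCGG on either strand, like 8 of the 11 receptor windows and 35.7% of all windows. The one with the higher start, chr6:110645348-110645647 on the plus strand, reads as follows, with no arm to capitalise.
Grm7: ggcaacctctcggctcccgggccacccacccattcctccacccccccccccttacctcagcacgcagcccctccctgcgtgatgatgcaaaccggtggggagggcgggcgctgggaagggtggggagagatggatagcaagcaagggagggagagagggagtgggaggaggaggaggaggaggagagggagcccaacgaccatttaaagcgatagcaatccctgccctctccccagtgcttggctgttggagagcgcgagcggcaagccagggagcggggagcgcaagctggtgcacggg

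Grm8 (ENSMUSG00000024211.15, chromosome 6 from 27275119 to 28135178, minus strand), a presynaptic receptor of high affinity for glutamate, was the scarcest. It had 4, 16 and 16 reads in Rest_het libraries, against 10, 8 and 5 reads in WT libraries, and it failed the count filter. The WT values lay between the lowest and the highest Rest_het value. Tested without the filter, Grm8 gave an adjusted p of 0.73 in edgeR, at a log2 fold change of 0.74.

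Shares within the kainate family overlapped between the groups for 4 of 5 subunits. By CPM, the groups of 19.3% of all tested genes did not overlap, so 1 of 5 shows no excess. Grik2 took 38.4 ± 1.69% of the summed RPKM of the 5 Grik genes in Rest_het and 36.7 ± 2.17% in WT (SD, n = 3 each). Grik3 took 27.4 ± 2.02% in Rest_het and 31.5 ± 3.40% in WT, and Grik5 20.5 ± 2.46% in Rest_het and 21.5 ± 0.370% in WT. Grik4 was the only subunit whose shares did not overlap, with 2.99, 4.70 and 1.78% in Rest_het libraries, against 1.34, 0.795 and 1.42% in WT libraries. Of the 5 Grm genes, Grm3 took 65.7 ± 8.54% in Rest_het and 68.3 ± 8.20% in WT, and Grm5 22.7 ± 5.44% in Rest_het and 23.8 ± 6.29% in WT. Grm7 took 2.81, 8.92 and 5.14% in Rest_het libraries, against 1.44, 1.47 and 1.33% in WT libraries. The summed RPKM overlapped between groups in both families, with means of 7.88 ± 0.877 in Rest_het and 8.42 ± 0.603 in WT for Grik genes, and 5.498 ± 0.659 in Rest_het and 4.83 ± 0.716 in WT for Grm genes (SD, n = 3 each). Grm7 and Grik4, with the largest folds, held a small share of the summed RPKM of the 5 genes taken for each family. They also had the fewest reads of the tested receptors (122 for Grm7 and 120 for Grik4). Their log2 fold changes had the largest SEs (0.46 and 0.49), so these folds are the least precise.

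**Figure D3:**
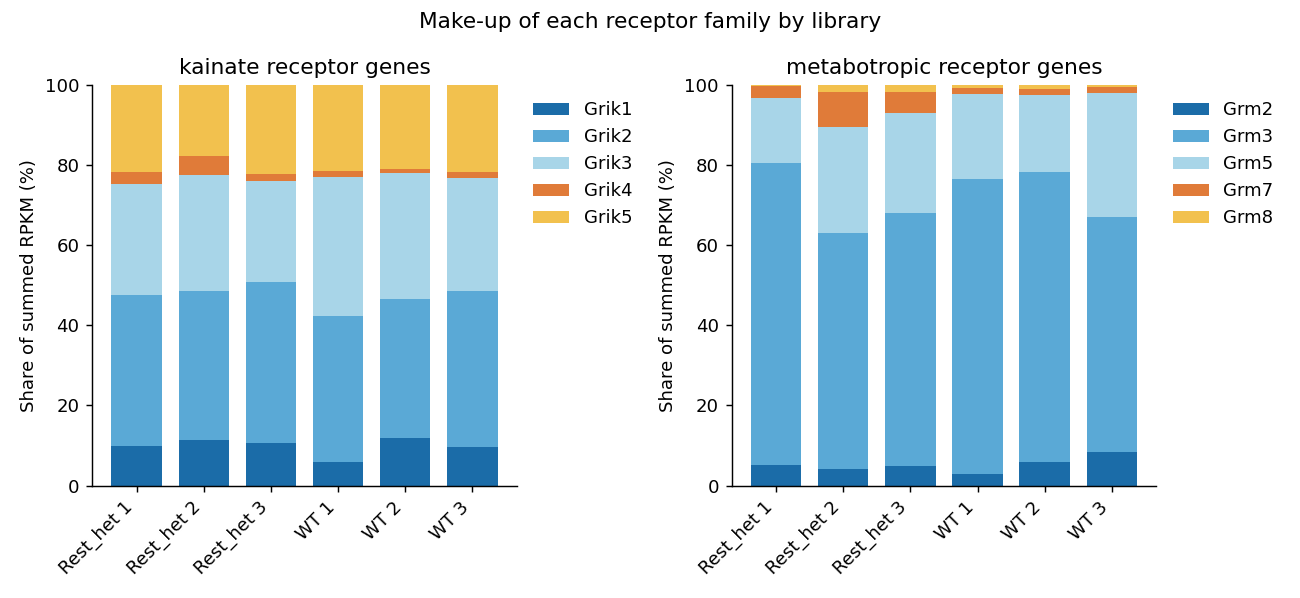
Share of each gene in the summed RPKM of the 5 kainate (left) and 5 metabotropic (right) receptor genes, by library, Rest_het left of WT. Grik2, Grik3 and Grik5 make up most of the kainate family and Grm3 most of the other; the Grm7 band reaches 8.92% in Rest_het replicate 2.

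Genes that work with these receptors were taken from 5 lists with 57 distinct genes, of which 48 were tested. None was called by edgeR over all genes, and DESeq2 called 1. Before adjustment, 8 were higher and 3 lower at an edgeR p under 0.05 (22.9% of 48), beside 11.7% of all tested genes, 6.97% higher and 4.72% lower. The lists were chosen with earlier results of these data known, so these shares support no excess among partners. Among 7 tested kainate partners, 2 were higher and 1 lower at that threshold. Neto1 and Neto2, auxiliary subunits that slow kainate channel closing, had opposite signs. Neto1 had 2.37, 3.15 and 2.92 CPM in Rest_het libraries, against 1.72, 1.32 and 1.29 CPM in WT libraries. Its groups did not overlap, and the fold was 1.95 with an interval of 1.38 to 2.75 (edgeR adjusted p = 0.33). Neto2, the far more abundant by reads, had 24.6, 21.4 and 24.6 CPM in Rest_het libraries, against 25.9, 31.4 and 28.4 CPM in WT libraries, a fold of 0.823 (edgeR adjusted p = 0.40). Pick1, a PDZ protein that binds Grm7 and kainate subunits, had 35.5, 35.4 and 32.6 CPM in Rest_het libraries, against 13.2, 26.6 and 27.2 CPM in WT libraries. WT replicate 1 stood apart from the other WT libraries (edgeR adjusted p = 0.40).

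Among 16 tested partners of the metabotropic receptors, 4 were higher and 0 lower at an unadjusted edgeR p under 0.05. Of all tested genes, 6.97% were higher and 4.72% lower at that threshold. Pick1 is on both this list and the kainate list and is counted in each. The median log2 fold change of the 16 was -0.01, beside 0.01 for all tested genes. Arrb2, a beta-arrestin that ends receptor signalling, had 12.8 ± 0.814 CPM in Rest_het and 8.04 ± 1.69 CPM in WT (SD, n = 3 each; edgeR adjusted p = 0.32). Ncdn, which binds Grm5 at the cell surface, had 45.1, 46.9 and 34.0 CPM in Rest_het, against 11.8, 27.7 and 29.2 CPM in WT (edgeR adjusted p = 0.37), again with WT replicate 1 lowest. Of 14 tested G protein and effector genes, 1 was higher and 1 lower. Gna11, a Gq-class subunit, had a fold of 1.16 (edgeR adjusted p = 0.36), and Plcb3, a phospholipase below it, a fold of 1.53 (edgeR adjusted p = 0.43). Kcnj3, a potassium channel subunit opened by Gi-coupled receptors, had 8.96, 8.74 and 8.12 CPM in Rest_het libraries, against 11.8, 13.1 and 11.1 CPM in WT libraries. Those groups did not overlap, with a fold of 0.718 (edgeR adjusted p = 0.33).

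Among 9 tested genes of glutamate supply and clearance, 2 were higher and 1 lower at an unadjusted edgeR p under 0.05. Beside them, 6.97% of all tested genes were higher and 4.72% lower. Slc1a2, the transporter GLT-1 that clears glutamate, had 51.2, 66.0 and 29.3 CPM in Rest_het libraries, against 24.6, 21.2 and 29.2 CPM in WT libraries. Rest_het replicate 3 lay beside the WT values and the other mutants above them. The Slc1a2 fold was 1.95 with an interval of 1.36 to 2.81 (edgeR adjusted p = 0.34). It was the partner that DESeq2 called, with an adjusted p of 0.028, and edgeR without a count filter gave 0.025. Glul, which turns glutamate into glutamine, had 32.5, 34.3 and 19.1 CPM in Rest_het, against 23.1, 17.01 and 15.2 CPM in WT (edgeR adjusted p = 0.39). Of the related receptors, Grm4 (group III) had 34 reads in Rest_het and 20 in WT, and Grid1, a delta receptor, a fold of 1.14. Grm6, a receptor of the retina, had 0 reads in all 6 libraries.

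Markers of neighbouring tissue varied between libraries. The 6 ventral telencephalon markers (Isl1, Ebf1, Gsx2, Six3, Drd1 and Drd2) summed to 92.1, 278 and 157 CPM in Rest_het libraries, against 155, 64.4 and 175 CPM in WT libraries. Of the 6, Drd2 was at 0 in WT replicate 2, and none was at 0 throughout a group. The 9 interneuron markers summed to 518, 657 and 522 CPM in Rest_het, against 571, 456 and 550 CPM in WT. Rest_het replicate 2 was the highest library for both lists, as it was for Grm7, Grik4, Grm8 and Grik1, while the groups overlapped in both sums. In that library Ebf1 held 201 CPM of the ventral sum and Maf 341 CPM of the interneuron sum. Isl1, Ebf1, Six3 and the interneuron markers other than Npy and Maf were highest there. Gsx2, Drd1, Drd2, Npy and Maf were highest in other libraries. The 4 thalamus markers summed to 224, 118 and 189 CPM in Rest_het, against 221, 123 and 145 CPM in WT. Of these Tcf7l2, the most abundant, was lowest of the 6 libraries in Rest_het replicate 2 at 92.5 CPM, with overlapping groups and a log2 fold change of 0.04. Lhx9 and Barhl2 were highest in Rest_het replicate 2, with groups that did not overlap, and Gbx2 was highest in Rest_het replicate 1 and at 0 in every WT library. The 5 markers of hippocampus and choroid plexus summed to 179, 12.3 and 362 CPM in Rest_het, against 55.4, 3.95 and 5.91 CPM in WT, led by Ttr. Prox1 and Otx2 were higher at an unadjusted edgeR p under 0.05, as were Lhx9 and Barhl2, and 0 genes of either list were lower. Of all tested genes 6.97% were higher and 4.72% lower at that p. Elsewhere 2 intermediate progenitor, 1 excitatory neuron and 1 microglia marker were lower at that p, and 1 radial glia marker was higher. The 6 Cajal-Retzius markers summed to 55.3, 40.5 and 40.3 CPM in Rest_het, against 31.5, 33.9 and 33.9 CPM in WT. Every Rest_het sum lay above every WT sum. Trp73 and Calb2 of that list were higher at that p, and 0 were lower. The part of all these markers in the receptor values was not tested.

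**Figure D4:**
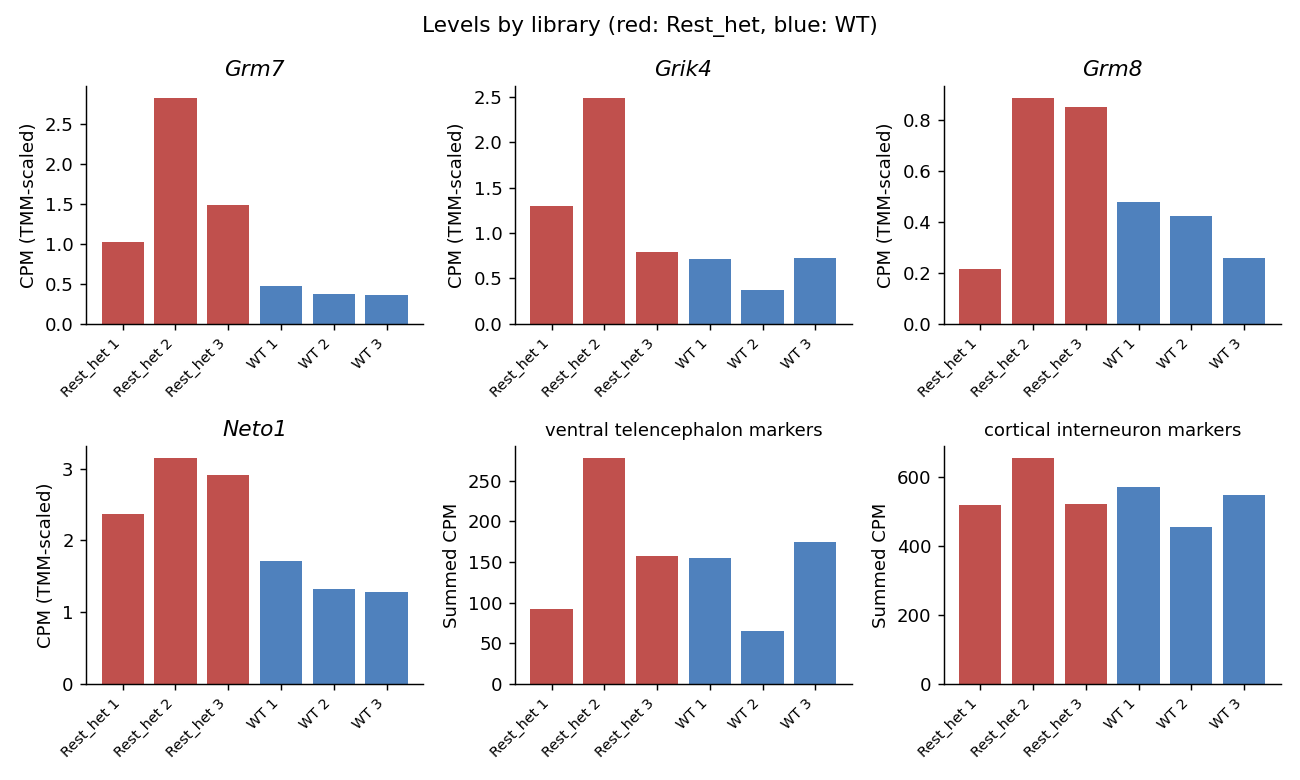
CPM of Grm7, Grik4, Grm8 and the auxiliary subunit Neto1, and summed CPM of 2 marker lists, in each library (red Rest_het, blue WT). Rest_het replicate 2 is the highest library in all 6 panels. Grm7, Grik4 and Neto1 are above every WT library in all mutants, Grik4 only just in Rest_het replicate 3.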

How the data were processed

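RNA counts of 3 Rest_het and 3 WT cortex libraries were used, grouped by the genotype label. Per the labels' protocols, oligo dT primed cDNA was amplified and tagmented, which marks no strand and holds no molecular identifiers. The authors deposited integer read counts for each gene, and the submitters' processing notes name STAR 2.5.2a and GRCm38.p4. Counts regardless of strand were taken. Rows naming no gene took 32.5 to 38.4% of read pairs and stayed out, as did 114 spike-in and transgene sequences. The deposited normalized signal (DESeq2, per the submitters' processing notes) equals the counts divided by 1 factor for each library (relative tolerance 1e-06).

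Symbols (48349 of 48709 IDs), positions and lengths came from GENCODE M21. edgeR 4.0.16 (R 4.3.3) fitted genotype alone with TMM scaling, after filterByExpr (minimum count 10, minimum total 15), and p-values were Benjamini-Hochberg adjusted over 15385 genes. CPM values were TMM-scaled. Standard errors were taken as the size of the log2 fold change divided by the square root of F, and SD is over 3 libraries unless stated. The code was tested on simulated data. Alternatives used DESeq2 1.42.0, limma 3.58.1 (voom, and log2 of the deposited values plus 1 or 0.5), other scalings and filters, a threshold of 0.10, the replicate number as a block and each library left out. Receptors and lists were chosen with earlier results of these data known. Named partners are, per list, the 3 with the smallest unadjusted edgeR p, since none was called; 2 of those genes are not reported here. Plots used matplotlib 3.10.9.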

Additional observations from a re-analysis of the deposited data

Results flagged for a closer look

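Reads outside the gene counts separated the groups. Cre-ERT2, the sequence of an inducible recombinase, had 43 reads in the 3 Rest_het libraries and 0 in the WT libraries, with 10, 16 and 17 reads by library. LacZ, a reporter sequence, had 0 reads in the Rest_het libraries and 121 in the 3 WT libraries, with 27, 51 and 43 reads by library. The labels name neither transgene, and their part in the receptor values was not tested.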

How the results depend on the processing

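The count of receptors called was 0 under each alternative except DESeq2 (1) and no count filter (1), both through Grm7, whose log2 fold changes there were 2.13 and 2.12. The DESeq2 fit kept the count filter, which Grm7 passed through the mutants alone. The count of partners called was 1 under DESeq2 and 1 with no filter, both Slc1a2 (0.96 each). DESeq2 called 126 genes in all, no filter 107 and the replicate block 6, against 19. Leaving out single libraries gave 12 to 35 genes in all (12 without WT replicate 1, 32 without Rest_het replicate 3 and 35 without WT replicate 2) and 1 to 3 receptors at an unadjusted p under 0.05, with 1 without WT replicate 2, where Grik4 had an unadjusted edgeR p of 0.087. Without Rest_het replicate 2 the 2 were Grm7 and Grik3, and without Rest_het replicate 1, its lowest mutant library, Grm8 entered the test through the other mutants alone, so its place under that p supports nothing. Receptors at that p numbered 1 under the block and 1 with a filter of CPM 1 in 3 libraries. The latter drops Grik4 and leaves 1 receptor with groups apart. Each time it was Grm7, which passed both filters through the mutants alone, so its place there supports nothing. In the main fit 11.7% of all tested genes passed that p and 19.3% had groups apart. These shares were not taken under the alternatives, so the receptor counts show no excess. Signs turned for values near 0, and leaving out single libraries gave log2 fold changes of -0.043 (without WT replicate 1) to 0.32 for Grik1, -0.13 to 0.028 for Grik2 (above 0 without Rest_het replicate 1 and, at 0.018, without WT replicate 3), -0.091 to 0.28 for Grm5 (below 0 without WT replicate 2 and, at -0.017, without Rest_het replicate 2), -0.087 (without Rest_het replicate 1) to 0.33 for Grm3 and -0.26 to 0.34 for Grm2 (above 0 without Rest_het replicate 2, Rest_het replicate 3 or WT replicate 3). Grm2 was 0.062 by limma-voom, 0.041 and 0.043 on the deposited values plus 1 and plus 0.5, and 0.032 under the block. The cause was not tested. Longest-transcript lengths gave 1.46 RPKM for Grik1, 4.30 for Grik2, 2.17 for Grik5, 1.51 for Grm5 and 0.108 for Grm8, and shares of 13.97% for Grik1, 40.8% for Grik2, 22.8% for Grik3 and 1.93% for Grm8. Same-numbered libraries did not deviate together (correlations of -0.0081, 0.050 and -0.16), and 1 of the 6 libraries (WT replicate 2) correlated best with its own number. So few correlations cannot show whether same-numbered libraries share a litter or preparation, and the labels give neither. Grm8 has no value where it failed the filter. Low reads limit Grm2, Grm7, Grm8 and Grik4.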
